A study of Mus musculus with 8 samples.

Results

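Neurexins, neuroligins and SynCAMs are membrane proteins that hold the presynaptic and postsynaptic sides of a synapse together. The genes described here are Cadm1, Cadm2, Cadm3 and Cadm4, which encode the SynCAM (cell adhesion molecule) proteins, the neurexin genes Nrxn2 and Nrxn3, and the neuroligin genes Nlgn1, Nlgn2 and Nlgn3. They are 9 of the 37310 genes in the count table and 9 of the 17913 genes tested. The set was chosen by gene family with the expression difference between heterozygous and wild-type mice already known. The genotype values of these genes are therefore a description, and the p-values beside them come from the same comparison, fitted over all genes.

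The study measured RNA in hippocampus from 4 mice heterozygous for an Nr2f1 knockout (Nr2f1 het) and 4 wild-type mice (WT), each library labelled as a biological replicate. The edgeR p-values set the genotype difference against the spread between these animals, with the variance estimate partly shared over genes. Nr2f1 encodes a nuclear receptor transcription factor. All mice were B6.129 F1-hybrid animals, 3 months old, labelled male, with no treatment listed. Both groups share this background, and the labels name no Cre driver or other allele. The data go against the sex label in all 8 libraries: Xist, made from the inactive X chromosome, was at 463.2 to 601.4 CPM, and Y-linked genes had 3 counts in total. CPM is a gene's read count relative to the library size, here after TMM scaling, which corrects the size for composition. Nlgn3 and Slitrk4, described below, are X-linked.

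Libraries held 58717305 to 90043971 gene counts. All 10 hippocampal excitatory neuron markers were detected in every library, from Spink8 at 5.004 to 7.883 CPM to Slc17a7 at 1425 to 1677 CPM. Striatal, thalamic and choroid plexus markers were also detected in every library, so detection does not check the tissue label. Nr2f1 itself was at 53.4, 49.5, 54.1 and 51.6 CPM in WT libraries 1 to 4 and at 32.4, 31.0, 33.5 and 28.5 CPM in heterozygote libraries 1 to 4. It was 60.1% of the WT level (log2 fold change -0.73 ± 0.0511 SE, edgeR adjusted p = 7.32e-05, exact two-sided permutation p = 0.0286, the smallest that 4 against 4 allows). The summed level of 12 choroid plexus markers, of which 0 passed in edgeR (11 at an unadjusted p under 0.05), was 84.5 to 2117 CPM in WT, with libraries 1 and 3 at 84.5 and 446.3, and 4109 to 4645 CPM in heterozygotes. Synthetic spike-in RNAs came as either of 2 mixes, and the ratio of a pair of them was 1.204 to 1.281 in odd-numbered and 0.165 to 0.186 in even-numbered libraries, in both genotypes.

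Neurexins sit mainly on the presynaptic side and are made as long and short forms from separate promoters of the same gene. Neuroligins are their postsynaptic partners: neuroligin 1 is found mainly at glutamate synapses, neuroligin 2 mainly at GABA synapses, and neuroligin 3 at both. SynCAMs are immunoglobulin-domain proteins that bind each other across the synaptic cleft and between axons and glia. In the hippocampus these families are known for shaping synapse number, synapse type and transmission.

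The stretch upstream of the start site is shown for Cadm2, the member with the widest genotype difference, and for Cadm3 and Cadm4, the relatives with an entry in the same RefSeq table (GRCm38.p6). Each is the 250 bases before the annotated start, read 5′ to 3′ on the gene's strand, with CpG dinucleotides in capitals. The Cadm2 stretch lies on the minus strand at chr16:67620909-67621158, that of Cadm3 on the minus strand at chr1:173367696-173367945, and that of Cadm4 on the plus strand at chr7:24481773-24482022.
Cadm2: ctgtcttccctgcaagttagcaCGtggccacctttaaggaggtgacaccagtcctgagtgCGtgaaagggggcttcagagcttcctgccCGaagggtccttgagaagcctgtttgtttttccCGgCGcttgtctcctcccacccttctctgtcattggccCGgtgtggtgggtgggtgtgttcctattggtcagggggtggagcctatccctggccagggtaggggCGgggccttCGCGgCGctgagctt
Cadm3: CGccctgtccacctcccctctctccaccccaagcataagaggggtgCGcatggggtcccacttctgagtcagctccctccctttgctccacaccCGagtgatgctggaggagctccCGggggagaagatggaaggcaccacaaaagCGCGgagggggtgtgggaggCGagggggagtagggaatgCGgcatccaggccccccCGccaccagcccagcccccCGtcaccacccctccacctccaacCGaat
Cadm4: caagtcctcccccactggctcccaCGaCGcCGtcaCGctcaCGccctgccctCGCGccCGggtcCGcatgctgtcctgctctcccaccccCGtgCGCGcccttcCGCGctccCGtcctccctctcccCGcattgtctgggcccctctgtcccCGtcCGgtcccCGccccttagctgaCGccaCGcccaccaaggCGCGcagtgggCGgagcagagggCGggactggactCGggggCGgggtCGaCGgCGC
These stretches held 10, 11 and 30 CpGs in that order, so the Cadm4 stretch was the richest of the 3. The table held 9 windows for 6 of the 9 members, 3 of them for Nrxn3 and 2 for Nlgn1; Cadm1, Nrxn2 and Nlgn3 had none. The letters AGGTCA, the half-site of nuclear receptors of this class, were searched on both strands of each 300-base window (250 bases before to 50 after the start). None of the 9 member windows held them, and 16.3% of all 32851 windows did. A pair of such half-sites spaced by a single base, AGGTCANAGGTCA, was in 0.0396% of all windows and in none of these 9. No match says only that these letters are absent from these windows.

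All 9 genes were abundant enough for precise counting. The smallest count of any member in any library was 4249, for Nlgn1, and 82.2% of tested genes had a lower mean CPM than Nlgn1. All 9 passed the filter on low counts in both genotypes. No stretch of 50 bases was shared between transcripts of different members. Some members share exon sequence with another gene. Gm21986, absent from the count table, covers 41.2% of Nlgn3 exon bases in the GRCm38 annotation, and the antisense gene A830092H15Rik, at up to 6.53 CPM, covers 9.16% of Nlgn1. For Cadm3 the shared part was 4.98%, with Ackr1 on the same strand, which had 2056 to 3545 counts (up to 39.25 CPM). For Nrxn2 it was 6.44%, for Nrxn3 3.48% and for Cadm2 2.61%, the last with an antisense gene that reached at most 2 counts. The library kit does not mark strand, so antisense reads in these stretches cannot be separated.

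Levels were compared between genes only per kilobase of exon (CPM per kb, exon lengths from the GRCm38 annotation, which is not the build of the counts). In WT, Cadm4 at 69.5 ± 3.90 CPM per kb and Cadm3 at 65.7 ± 1.46 (SD, n = 4 each) were the highest, and their ranges overlapped. Nlgn2, the neuroligin of inhibitory synapses, followed at 52.5 ± 0.677 CPM per kb, below the range of Cadm3. Nrxn2 at 23.1 ± 0.154, Cadm1 at 23.0 ± 1.83, Cadm2 at 20.9 ± 0.898 and Nrxn3 at 20 ± 0.573 CPM per kb formed a middle group in which each gene overlapped the next. Nlgn3 at 17.7 ± 0.483 CPM per kb lay below all of these. Nlgn1, the neuroligin of excitatory synapses, was lowest at 5.77 ± 0.196 CPM per kb, with no overlap with Nlgn3. The order was by these length-corrected levels, and exon lengths of another build limit it. The length used was also the union of all annotated exons of a gene, 13422 bases for Nlgn1 and 5785 for Nlgn2. It can exceed the length of the transcripts present.

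**Figure D1:**
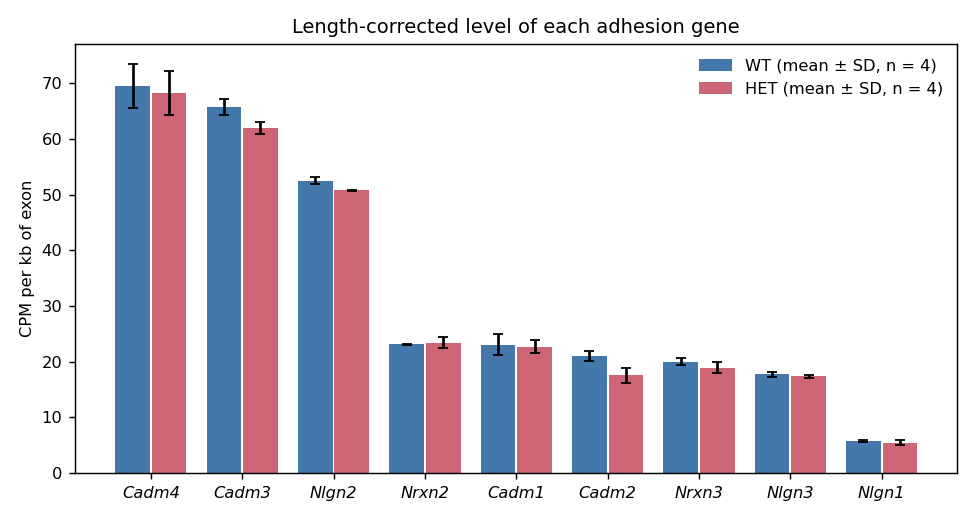
Length-corrected level (CPM per kb of exon, vertical axis from 0) of the 9 adhesion genes, ordered by WT level; bars are means and error bars SD over 4 libraries for WT and heterozygotes (HET). Cadm4, Cadm3 and Nlgn2 stand above 50 CPM per kb in both genotypes, and Nlgn1 is lowest at 5.77 CPM per kb in WT.

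Across the genotypes, Cadm2 was the single member past the threshold and the one with the widest difference. Of the 9 genes, 1 passed an edgeR adjusted p of 0.05, lower in heterozygotes; over all tested genes 2.99% passed in either direction and 0.368% passed as lower. The log2 fold change was below 0 for 8 of the 9 members, where 52.1% of all tested genes were below 0. Most genes in the lists of partner genes described below were also below 0. The median over the members was -0.048 and over all tested genes -0.0056. The 4 heterozygote values lay below all 4 WT values for 3 members, Cadm2, Cadm3 and Nlgn2, and this was so for 3.59% of all tested genes. No member lay wholly above WT.

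**Figure D2:**
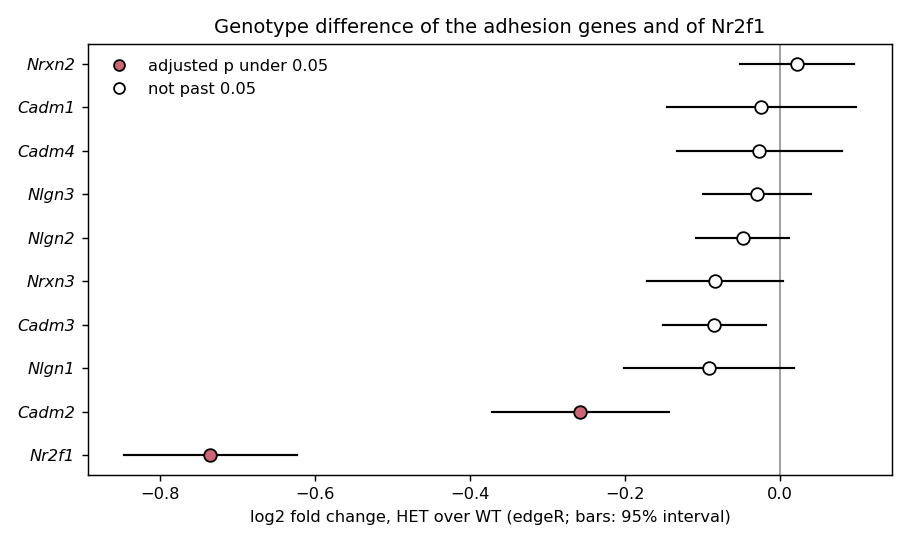
Log2 fold change of heterozygotes (HET) over WT (horizontal axis, edgeR) for the 9 adhesion genes and the targeted gene Nr2f1, with 95% intervals; filled points passed an adjusted p of 0.05 over all genes. Cadm2 at -0.26 is the single filled adhesion gene, and the other 8 lie between -0.091 and 0.022.

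Cadm2 (ENSMUSG00000064115, chromosome 16) encodes SynCAM 2, an axonal and synaptic adhesion protein of neurons. Its level was 206.9, 194.2, 205.3 and 215.7 CPM in WT libraries 1 to 4. In heterozygote libraries 1 to 4 it was 181.4, 173.6, 153.2 and 179.7 CPM. Every heterozygote value was below the lowest WT value, with library 3 the lowest of all. The means were 205.5 ± 8.80 CPM in WT and 172.0 ± 12.9 CPM in heterozygotes (SD, n = 4 each), a fold of 0.837. The log2 fold change was -0.26 ± 0.0523 (SE; 95% interval -0.37 to -0.14; edgeR adjusted p = 0.0241). Among the 66 genes that passed as lower, whose median was -0.20, 18 had a larger fall.

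The Cadm2 difference ranged from -0.30 to -0.21 on the log2 scale over the 24 other ways of fitting, and passed the threshold in 15 of them. It was lost without WT library 1 (edgeR adjusted p = 0.0798), without WT library 3 (0.0790), without both (0.199) and without heterozygote library 2 (0.0504). The log2 fold change was then -0.25, -0.26, -0.26 and -0.26 in that order. Odd-numbered libraries alone, 2 against 2, gave -0.29 (edgeR adjusted p = 0.117). Even-numbered libraries alone gave -0.21 (edgeR adjusted p = 0.247). Spike-in scaling gave -0.24 ± 0.2705 (SE), which also did not pass.

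Summed marker levels of several other cell types that the dissection could hold did not overlap between the genotypes, though few single markers passed the threshold. A score from the choroid plexus markers, put in the model, left the Cadm2 log2 fold change at -0.26 (edgeR adjusted p = 0.646). An ependymal score gave -0.30 (edgeR adjusted p = 0.950). The SE rose from 0.0523 to 0.0838 and 0.115 in that order. The choroid plexus score was -3.41 to 0.326 in WT and 1.14 to 1.38 in heterozygotes. The ependymal score was -1.34 to -0.144 in WT and 0.466 to 1.06 in heterozygotes. With both scores separate between the groups, these fits cannot cleanly tell genotype and score apart. Ependymal markers, cells that line the ventricles, summed to 10.4 to 20.7 CPM in WT and 29.8 to 45.3 CPM in heterozygotes, with 4 of 6 past the threshold as higher. Choroid plexus markers had 0 of 12 past it in edgeR (11 at an unadjusted p under 0.05, 4 past it in the DESeq2 Wald test), with a median log2 fold change of 1.86. Ttr alone, at 44.9 to 4201 CPM over all libraries, was the largest part of their sum. Meningeal fibroblast markers summed to 90.7 to 236.4 CPM against 318.3 to 379.6 CPM, with 0 of 8 past the threshold in edgeR (4 at an unadjusted p under 0.05, 3 past it in the DESeq2 Wald test). Their median log2 fold change was 0.84, and Igf2 was the largest part of the sum, at 43.1 to 271 CPM over all libraries. Striatal markers summed to 199.0 to 214.5 CPM against 214.6 to 329.5 CPM, with 1 of 10 higher, and thalamic markers to 179.9 to 211.5 CPM against 222.7 to 284.4 CPM, with 2 of 9 tested higher. Astrocyte markers summed to 5933 to 6231 CPM in WT and 5546 to 5916 CPM in heterozygotes, with 0 of 10 past the threshold in edgeR (5 at an unadjusted p under 0.05, 3 past it in the DESeq2 Wald test). Their median log2 fold change was only -0.018, and Slc1a2 alone, at 3101 to 3688 CPM over all libraries, made up most of this sum. Sums for oligodendrocyte precursors, microglia, endothelial cells and interneurons overlapped. None of the markers in these lists was at 0 in any library, and the part of striatal, thalamic, meningeal and astrocyte RNA in the Cadm2 value was not tested. The 10 hippocampal excitatory neuron markers overlapped between the genotypes in sum, at 2639 to 2885 CPM in WT and 2392 to 2696 CPM in heterozygotes, with 2 past the threshold as lower. In whole tissue, fewer cells of a type and less RNA per cell cannot be told apart.

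The other SynCAM genes differed by less. Cadm3, a neuronal SynCAM known from axons, was at 478.9, 466.6, 490.1 and 469.7 CPM in WT and at 445.8, 445.5, 460.9 and 444.9 CPM in heterozygotes. The groups did not overlap, yet the difference was small, with a log2 fold change of -0.084 ± 0.0304 (SE; 95% interval -0.15 to -0.018), and it did not pass (edgeR adjusted p = 0.166). The DESeq2 Wald test gave nearly the same size and an adjusted p of 0.0339. For Cadm3 the log2 fold change was -0.055 ± 0.0493 (SE) with the choroid plexus score and -0.014 ± 0.0636 with the ependymal score. Cadm1, which encodes SynCAM 1, the founding member of the family and an organiser of excitatory synapses, was at 242.5, 214.5, 244.8 and 260.4 CPM in WT and at 227.1, 247.6, 246.1 and 225.6 CPM in heterozygotes. WT library 2 was the lowest and WT library 4 the highest of all 8, so the heterozygotes lay inside the WT range (log2 fold change -0.024, 95% interval -0.15 to 0.098, edgeR adjusted p = 0.877). Cadm4, which in peripheral nerve sits on myelinating glia and binds axonal SynCAMs, was at 140.2, 156.5, 146.3 and 157.7 CPM in WT and at 141.8, 156.9, 152.5 and 138.7 CPM in heterozygotes. These ranges also overlapped (log2 fold change -0.026, 95% interval -0.13 to 0.080, edgeR adjusted p = 0.841). The 12 myelinating oligodendrocyte markers summed to 3666, 5031, 3395 and 4792 CPM in WT libraries 1 to 4 and 4530, 4904, 4419 and 4093 CPM in heterozygotes. In WT, libraries 1 and 3 were the lower ones for both Cadm4 and these markers. Yet Cadm4 was lowest in library 1 and highest in library 4, and the markers in libraries 3 and 2. In heterozygotes, library 4 was lowest and library 2 highest for both, as also for Cadm1. Heterozygote library 1 was above library 3 for the markers and below it for Cadm4. These orders were compared after the values were seen, and a link was not tested. With the choroid plexus and ependymal scores the log2 fold changes were -0.022 and 0.095 for Cadm1. For Cadm4 they were -0.15 and -0.13, larger in size than without a score. With spike-in scaling the signs for Cadm1 and Cadm4 were turned.

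**Figure D3:**
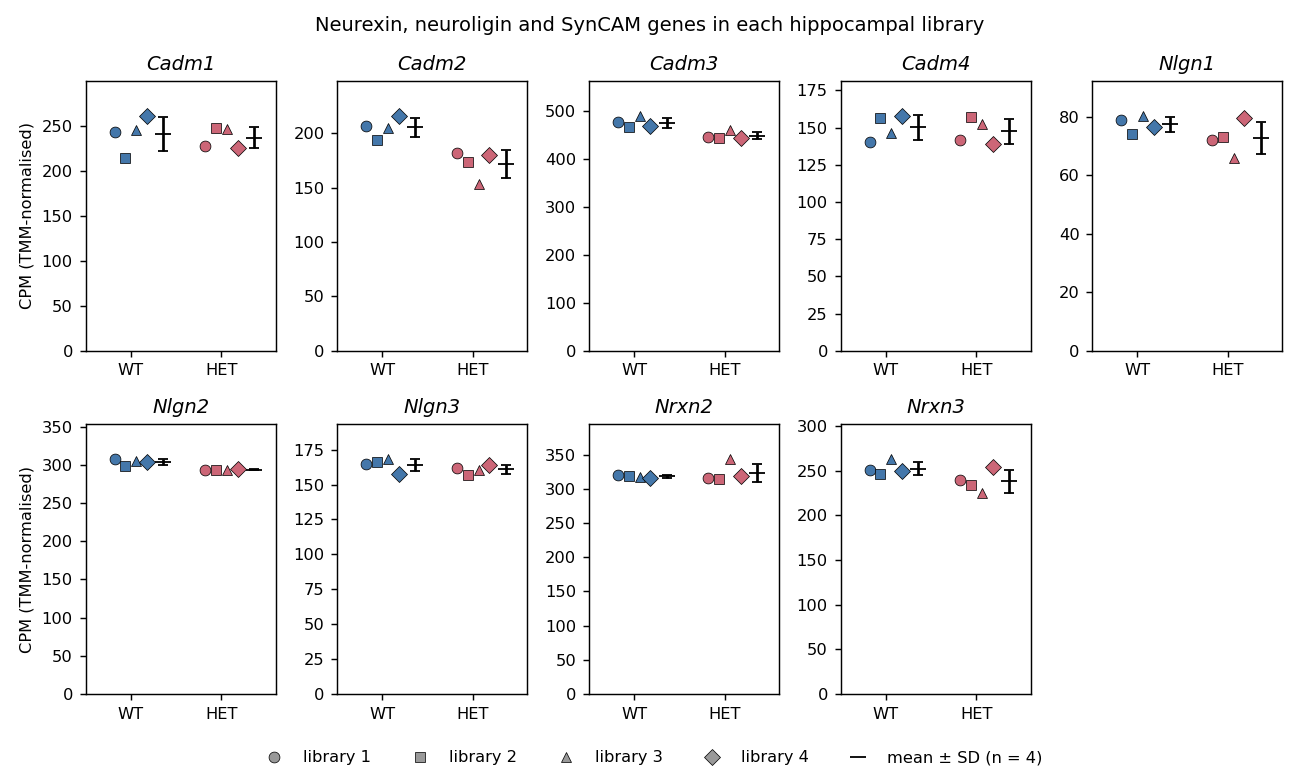
Normalised level (CPM, vertical axes from 0) of each of the 9 adhesion genes in 4 WT and 4 heterozygote (HET) libraries; symbols mark the library number and the black bar gives the mean and SD. In Cadm2 all heterozygote points, from 153.2 to 181.4 CPM, lie below all WT points, from 194.2 to 215.7 CPM, while most other genes overlap or differ by a few percent.

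The share of Cadm2 within its family needs no scaling between libraries. Of the summed length-corrected counts of Cadm1 to Cadm4, Cadm2 took 12.03%, 11.18%, 11.65% and 11.9% in WT libraries 1 to 4. In heterozygote libraries it took 11.0%, 10.1%, 9.01% and 11.1%. The groups were separate, but the gap was narrow, from 11.1% to 11.2%. The mean share was 10.3 ± 0.976% against 11.7 ± 0.378% (SD, n = 4 each), a difference of -1.38 percentage points that was -0.953 without heterozygote library 3. The shares of Cadm1, Cadm3 and Cadm4 overlapped between the genotypes, at means of 13.3%, 36.4% and 40.0% in heterozygotes and 12.85%, 36.7% and 38.8% in WT.

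The neuroligin genes did not pass the threshold. Nlgn1, whose protein promotes excitatory synapses, was at 78.7, 74.2, 80.2 and 76.6 CPM in WT and at 72.2, 73.0, 66.0 and 79.5 CPM in heterozygotes. Heterozygote library 3 was the lowest of all 8 and library 4 within the WT range, so the groups overlapped (log2 fold change -0.091, 95% interval -0.20 to 0.019, edgeR adjusted p = 0.393). For Nlgn1 the log2 fold change was -0.19 within odd-numbered and 0.016 within even-numbered libraries, so its sign rested on the odd-numbered ones. Nlgn2, whose protein organises inhibitory synapses, was at 307.3, 298.2, 305.4 and 303.7 CPM in WT and at 293.9, 293.2, 293.3 and 294.8 CPM in heterozygotes. The 4 heterozygote values spread by a coefficient of variation of only 0.248%, the narrowest of any member, and all lay below WT. The difference was nonetheless small (log2 fold change -0.048 ± 0.0277 SE, 95% interval -0.11 to 0.013, edgeR adjusted p = 0.418). For Nlgn2 the value was -0.028 ± 0.0455 (SE) with the choroid plexus score and -0.016 ± 0.0609 with the ependymal score. Nlgn3, from the X chromosome, was at 164.8, 165.8, 168.0 and 157.6 CPM in WT and at 161.7, 157.0, 160.1 and 164.3 CPM in heterozygotes, with overlapping groups (log2 fold change -0.029, 95% interval -0.099 to 0.040, edgeR adjusted p = 0.696).

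Within a library, Nlgn2 made up most of the neuroligin RNA. It took 69.1 ± 0.518% of the length-corrected counts of the 3 genes in WT and 69.1 ± 0.551% in heterozygotes (SD, n = 4 each), with Nlgn3 at 23.3% and 23.6% and Nlgn1 at 7.59% and 7.36%. The ratio of Nlgn2 to Nlgn1, the neuroligins of inhibitory and excitatory synapses, was 9.06, 9.33, 8.84 and 9.20 in WT libraries. It was 9.44, 9.32, 10.3 and 8.60 in heterozygote libraries, which hold both the highest and the lowest value. The difference of the means, 0.315, was 0.0166 without heterozygote library 3 and 0.587 without heterozygote library 4. The shares and the ratio rest on the exon lengths used. Without length correction the WT means were 303.6 CPM for Nlgn2, 164.1 for Nlgn3 and 77.4 for Nlgn1, which lie closer together.

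The neurexin genes also overlapped between the genotypes. Nrxn2 was at 321.2, 319.6, 317.3 and 316.5 CPM in WT, the tightest WT group of the 9 genes with a coefficient of variation of 0.669%. In heterozygotes it was at 316.3, 315.4, 343.4 and 318.9 CPM, library 3 standing above the rest (log2 fold change 0.022, 95% interval -0.052 to 0.096, edgeR adjusted p = 0.800). Nrxn3 was at 250.2, 246.1, 262.6 and 249.8 CPM in WT and at 239.2, 233.5, 224.5 and 254.5 CPM in heterozygotes. Libraries 1 to 3 of the heterozygotes were below all WT values and library 4 was above 3 of them (log2 fold change -0.084 ± 0.0403 SE, 95% interval -0.17 to 0.0036, edgeR adjusted p = 0.311). The ratio of Nrxn3 to Nrxn2 per kilobase was 0.854, 0.844, 0.907 and 0.865 in WT and 0.8287, 0.811, 0.716 and 0.874 in heterozygotes. The means were 0.867 and 0.808, and the difference of -0.060 was -0.029 without heterozygote library 3. Counts per gene do not separate the long and short forms of either gene.

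**Figure D4:**
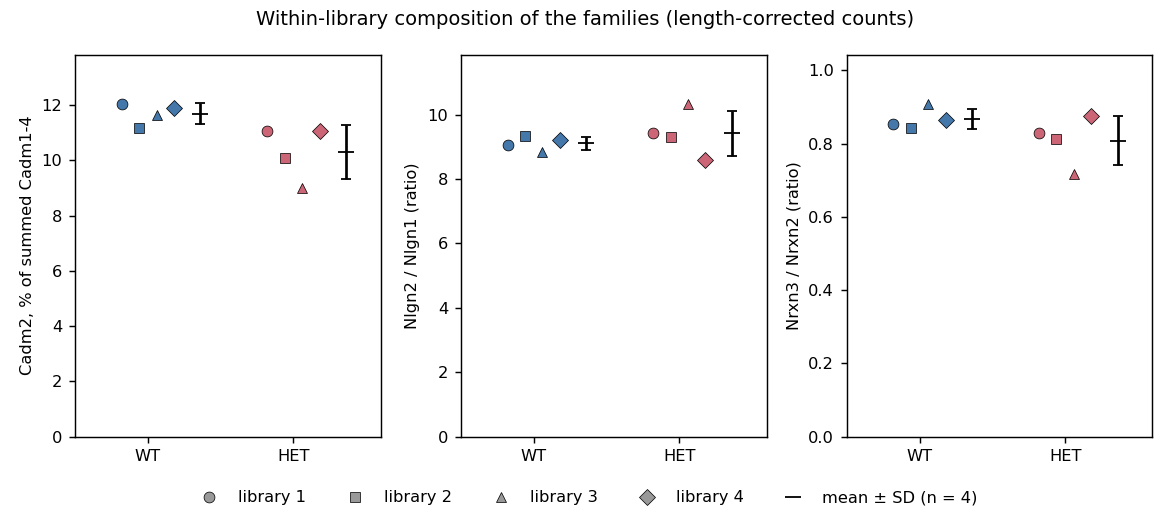
Within-library measures from length-corrected counts, vertical axes from 0: the percent of Cadm1 to Cadm4 that is Cadm2, the ratio of Nlgn2 to Nlgn1 and the ratio of Nrxn3 to Nrxn2, per library with mean and SD. Cadm2 takes 9.01% to 11.1% in heterozygotes (HET) and 11.18% to 12.03% in WT; both ratios overlap, and heterozygote library 3 is at one end of all 3 panels.

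Heterozygote library 3 gave the lowest heterozygote value for 3 members, Cadm2, Nrxn3 and Nlgn1, and the highest for Nrxn2 and Cadm3. Those 3 genes are also the members with the longest loci, at 965.5, 1612 and 906.2 kb in the GRCm38 annotation, against 14.7 to 327.5 kb for the other 6. This split was made after the values were seen. Over the 214 tested genes with loci over 500 kb, the 3 members included, the median log2 fold change was -0.066. Of them 5 passed as higher and 4 as lower (1.87%), Cadm2 among the 4. Over the 16892 tested genes with annotated loci of 500 kb or less the median was -0.0045, with 457 higher and 61 lower (0.361%). Measured against the mean of its genotype, the median long-locus gene was at -0.031 on the log2 scale in heterozygote library 3 and at 0.037 in library 4, and at -0.014 and 0.014 in libraries 1 and 2. In WT libraries 1 to 4 it was at 0.010, -0.024, 0.017 and 0.0053.

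The difference between odd-numbered and even-numbered libraries, a measure that did not choose the members, was tested with genotype in the model. No gene passed in edgeR, 0% of 17913 (1224 genes had an unadjusted p under 0.05, and limma-voom also passed 0). Among the 9 members the odd minus even log2 differences ran from -0.070 for Cadm4 to 0.038 for Cadm3, with edgeR adjusted p from 0.817 to 0.977. The genotype difference within odd-numbered and within even-numbered libraries was -0.087 and -0.073 (log2) for Cadm3, -0.14 and -0.024 for Nrxn3, -0.053 and -0.034 for Nlgn2, -0.040 and -0.010 for Nlgn3, and -0.034 and -0.0057 for Cadm1. For Cadm4 it was 0.048 and -0.089, and for Nrxn2 0.056 and -0.0045, so these 2 genes and Nlgn1 had opposite signs in the 2 subsets.

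The genes whose profile over the 8 libraries was nearest to Cadm2 were Scai, Mosmo and Pgm2l1, out of 13212 genes with a mean of at least 1 CPM. Nearness was the root mean square difference of log2(CPM + 0.5) centred on each gene's mean, and was 0.0327, 0.0438 and 0.0461 in that order, where the median gene was at 0.166. Scai was at 74.5, 70.2, 75.6 and 77.5 CPM in WT and at 67.6, 65.9, 58.2 and 64.6 CPM in heterozygotes, with the lowest value in heterozygote library 3, as for Cadm2. Relative to WT, the heterozygote level was 0.860 for Scai, 0.872 for Mosmo and 0.844 for Pgm2l1 (edgeR adjusted p = 0.0316, 0.0311 and 0.0473). These genes were picked for likeness to a gene that differs by genotype, so their own differences add no support.

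Genes that work with these adhesion molecules were taken as 5 lists, 103 genes, all of them tested. In the lists 1 gene passed as lower and 0 as higher, 0.971% in all, beside 2.99% of all tested genes in either direction and 0.368% as lower. The median log2 fold change over the 103 was -0.057.

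Rbfox3, the neuronal splicing factor also known as NeuN, was the member of the splicing list to pass. It was at 258.6, 253.6, 253.8 and 245.7 CPM in WT and at 230.3, 225.7, 228.8 and 237.7 CPM in heterozygotes. All heterozygote values were below WT, and the mean was 0.912 of WT (log2 fold change -0.13 ± 0.0310 SE, edgeR adjusted p = 0.0396). Without WT library 1, 2 or 3 or any 1 of the heterozygote libraries the call was lost, with adjusted p between 0.0512 and 0.125 and a log2 fold change of -0.15 to -0.12. It was also lost with the replicate number as a block (-0.13, adjusted p = 0.122), the choroid plexus score (-0.093, 0.792) and the ependymal score (-0.11, 0.951); over all alternatives the adjusted p ran from 0.000648 to 1. Of 8 splicing regulators of neurexin transcripts, 7 had a log2 fold change below 0 and 7 did not pass; the median was -0.12. These 7 lie outside the rule for named genes and ran from 0.887 of WT for Nova1 (edgeR adjusted p = 0.173) to 1.002 for Nova2 (0.975). The lowest adjusted p among them was 0.125, for Rbfox1.

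Of 27 extracellular and transmembrane partners of neurexins, such as the LRRTMs, cerebellins, neurexophilins and latrophilins, 0 passed in edgeR (4 had an unadjusted p under 0.05, and the DESeq2 Wald test passed 1). Their median log2 fold change was -0.078. Adgrl2, a latrophilin gene, had a value of 0.881 of WT, at 64.7 ± 4.60 CPM against 73.5 ± 4.74 CPM (SD, n = 4 each; edgeR adjusted p = 0.111), and Lrrtm4, which encodes a postsynaptic leucine-rich repeat protein, of 0.868 (edgeR adjusted p = 0.148). The Lrrtm4 log2 fold change of -0.20 ± 0.0709 (SE) was -0.012 ± 0.0863 with the choroid plexus score and -0.0091 ± 0.1385 with the ependymal score. It was -0.098 without WT libraries 1 and 3, and -0.33 and -0.066 within odd-numbered and even-numbered libraries. The Adgrl2 value of -0.18 was -0.16 with the choroid plexus score and -0.17 with the ependymal score. Cbln1 and Nxph3 had the widest differences in this list and were picked out after their values were seen; neither passed. For Cbln1 the means were 1.72 ± 0.376 CPM in WT and 1.08 ± 0.688 CPM in heterozygotes (SD, n = 4 each), a difference of -0.64 ± 0.383 (log2, SE). For Nxph3 the difference was -0.60 ± 0.248 (log2, SE). Nxph3 was at 21.99, 25.0, 16.7 and 21.9 CPM in WT and at 11.1, 21.6, 11.2 and 12.6 CPM in heterozygotes, where library 2 stood with the WT values (edgeR adjusted p = 0.286).

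Of 29 intracellular partners, such as CASK, the Mint, band 4.1, PSD-95 and Shank scaffolds, 0 passed in edgeR (3 had an unadjusted p under 0.05, and the DESeq2 Wald test passed 1), and the median was -0.046. Apba1, which encodes the presynaptic adaptor Mint1, had a value of 0.906 of WT with no overlap between the groups (edgeR adjusted p = 0.0947), and Magi2, a postsynaptic scaffold gene, of 0.935 (edgeR adjusted p = 0.200). The Magi2 log2 fold change of -0.097 was -0.038 with the choroid plexus score, -0.069 with the ependymal score and -0.049 within even-numbered libraries. The Apba1 value of -0.14 was -0.18 with the choroid plexus score and -0.13 with the ependymal score. Of 32 other synaptic organisers, such as the receptor tyrosine phosphatases, Slitrks and teneurins, 0 passed in edgeR (10 had an unadjusted p under 0.05, and the DESeq2 Wald test passed 1), with a median of -0.047. Lrrc4c, which encodes the netrin-G ligand NGL-1, had a value of 0.902 of WT (edgeR adjusted p = 0.0793) and Slitrk4 of 0.868 (edgeR adjusted p = 0.137). The Slitrk4 log2 fold change of -0.20 was -0.17 with the choroid plexus score, and -0.11 with the ependymal score and within even-numbered libraries. The Lrrc4c value of -0.15 was -0.18 with the choroid plexus score and -0.20 with the ependymal score. Of 7 enzymes that can cleave adhesion proteins at the membrane, 0 passed in edgeR (1 had an unadjusted p under 0.05, and the DESeq2 Wald test passed 1). Adam17 was at 24.6 ± 0.655 CPM in heterozygotes against 22.1 ± 0.379 CPM in WT (SD, n = 4 each), with every heterozygote value above WT (edgeR adjusted p = 0.0637). Adam10, which encodes a protease that sheds neuroligins, had a value of 0.950 of WT (edgeR adjusted p = 0.556).

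**Figure D5:**
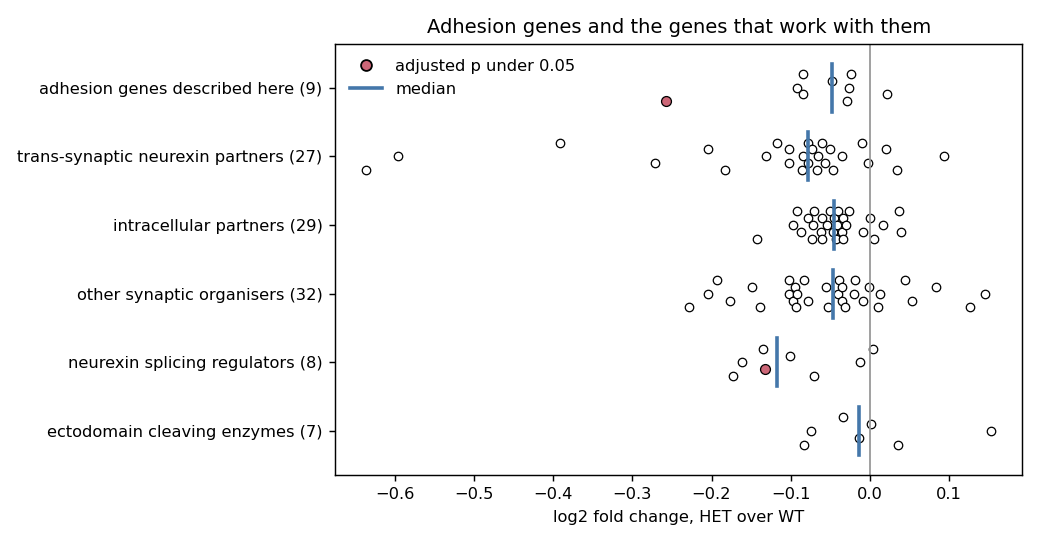
Log2 fold change of heterozygotes (HET) over WT (horizontal axis) for the 9 adhesion genes and the 5 lists of genes that work with them; each point is a gene, filled where its edgeR adjusted p was under 0.05, and blue lines mark medians. All medians lie left of 0, between -0.12 and -0.013, and the filled points are Cadm2 and Rbfox3.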

How the data were processed

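RNA-seq counts of hippocampus from 4 Nr2f1 heterozygotes and 4 wild-type mice were used. The authors deposited raw read counts per Ensembl gene; the tools listed in the submitters' processing notes are FastQC, STAR (2.4.2a), HTSeq, and also DESeq2, on mm9 (NCBIM37), with no settings given. The 92 spike-in rows (0.0431% to 0.0787% of counts) entered neither library sizes nor tests. Symbols matched 32620 of 37310 identifiers through GENCODE M21 (GRCm38). Counts were filtered with filterByExpr (minimum count 10, minimum total 15), scaled by TMM and compared over 17913 genes in edgeR 4.0.16 (R 4.3.3; quasi-likelihood, two-sided, robust, newer dispersion estimate), with Benjamini-Hochberg adjustment over all of them and a threshold of 0.05. The step was tested on simulated data. Standard errors are the log2 fold change over the root of F, and 95% intervals use its t quantile. Marker scores are the mean log2 CPM of a list, centred over libraries.

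The members, lists and tests were chosen with earlier results of these data known. Named are all members, Nr2f1, from each list up to 4 genes past 0.05 or else the 2 of lowest p, and the 3 genes most like a called member; others are marked. Alternatives were DESeq2 1.42.0 size factors and Wald test, limma-voom (limma 3.58.1), upper quartile and spike-in scaling, other filters and dispersion estimates, left-out libraries, the replicate number, spike-in mix or a marker score in the model, and, after seeing the data, each mix alone and the older dispersion estimate. Transcript stretches of 50 bases were matched over all GENCODE M21 transcripts, and promoter windows came from RefSeq (GRCm38.p6).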

Additional observations from a re-analysis of the deposited data

Results flagged for a closer look

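In 38 groups of 4 libraries (the 9 members, Nr2f1 and the family shares and ratios, per genotype), 3 values stood apart from the other 3 by more than Dixon's 95% critical value; chance flags about 1 in 20 such groups. Cadm3 was at 460.9 CPM in heterozygote library 3, with the nearest at 445.8 CPM, and this value was the one closest to WT. Nrxn2 was at 343.4 CPM in heterozygote library 3, with the nearest at 318.9 CPM, and without that library its log2 fold change turned below 0. Nlgn3 took 23.18% of the neuroligin counts in heterozygote library 2, with the nearest at 23.69%, a gap that is small beside the WT range of 22.6% to 23.9%.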

How the results depend on the processing

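The main count of changed genes, 535, was 282 with spike-in scaling (279 higher, 3 lower), 1188 with the DESeq2 Wald test (905 higher, 283 lower), 170 without WT libraries 1 and 3, 78 among even-numbered libraries, 1 with the choroid plexus score and 0 with the ependymal score (edgeR; 893 at an unadjusted p under 0.05), and 171 to 767 with a single library left out (222 without WT 1, 171 without WT 3, 321, 315 and 281 without heterozygote 1, 3 and 4). The members past the threshold, 1 in the main comparison, were 2 with the DESeq2 Wald test and 0 in edgeR with spike-in scaling, either score, without WT libraries 1 and 3, and in either mix alone, and 0 to 1 with a library left out (0 to 3 at an unadjusted p under 0.05 where none passed). The listed partner genes past it, 1 in the main comparison, were 5 with the DESeq2 Wald test, 2 with the spike-in mix as a covariate, 0 with spike-in scaling, either score, without WT libraries 1 and 3, and among even-numbered libraries (edgeR; 1 to 11 at an unadjusted p under 0.05), and 0 to 3 with a library left out. Nr2f1 lost its call with spike-in scaling (log2 fold change -0.70 ± 0.248 SE, edgeR adjusted p = 0.211). It also lost it with the ependymal score (-0.55 ± 0.0889 SE, edgeR adjusted p = 0.469). The SE for Nr2f1 in the main comparison was 0.0511. The Cadm2 difference kept its sign in all 24 alternatives, with adjusted p from 0.000529 to 1. Each mix alone and the older dispersion estimate were chosen after seeing the data. Cadm3, Nrxn3 and Nlgn2 also kept theirs, while Cadm1, Cadm4, Nrxn2, Nlgn1 and Nlgn3 had the other sign in 4, 5, 2, 1 and 2 of 24. The Cadm2 share difference was -2.03 points with raw counts and -1.64 to -0.953 with a library left out; the Nlgn2 to Nlgn1 difference was 0.0166 to 0.587 and that of Nrxn3 to Nrxn2 -0.082 to -0.029. The cause of these changes was not tested, except that fewer libraries enter where some are left out.

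With the replicate number as a block 406 genes passed, 1 of them a member (Cadm2 at -0.26, edgeR adjusted p = 0.0285) and 0 of them a listed partner gene (20 had an unadjusted p under 0.05). The numbers give no pairing: same-numbered libraries had correlations of their deviations of 0.027, -0.045, -0.093 and -0.078. No library correlated best with its own number.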
